A study of Mus musculus with 12 samples.

Results

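The genes described here are those whose symbol on the array platform is Cyp1, Cyp2 or Cyp3 followed by a subfamily letter and a number, measured by a probe set that the platform assigns to 1 symbol. That rule found 53 genes. Cyp2e1, Cyp1a2, Cyp3a11 and Cyp2c70 were left out of it by name, which leaves 49 members among the 18820 genes tested. Family 1 has 2 members (Cyp1a1 and Cyp1b1), family 2 has 42 and family 3 has 5, in 15 subfamilies, 9 of which are represented by 1 gene. All 49 were matched in RefSeq, which lists Cyp2d13 as a pseudogene. Cyp2a4, Cyp2c40, Cyp2c69 and Cyp3a59 are named by the platform only on probe sets shared by several genes and are no members.

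Cytochrome P450 enzymes are haem-containing oxygenases of the endoplasmic reticulum. Those of families 1 to 3 oxidise drugs, plant and food chemicals, steroids and fatty acids, and the hepatocyte is the main cell that makes them. They draw electrons from cytochrome P450 reductase and cytochrome b5. Their genes are switched by receptors that sense small molecules (the aryl hydrocarbon receptor for family 1, CAR and PXR for families 2 and 3) and, in rodents, many differ between males and females under the control of growth hormone.

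RNA was hybridised to 12 one-colour arrays from 6 male C57BL/6 mice aged 7 to 8 weeks, and each mouse gave a whole liver sample and a primary hepatocyte sample. The 3 WT mice were Jnk1 f/f Jnk2+/+ littermates. The 3 JNKΔhepa mice were Jnk1 f/f Jnk2-/- with the Albf-Cre transgene, whose albumin promoter and alpha-fetoprotein enhancer elements direct recombination to hepatocytes, so that Jnk1 was deleted in hepatocytes and Jnk2 was missing from every cell. The floxed Jnk1 allele is common to all 4 groups (liver WT, liver JNKΔhepa, hepatocytes WT and hepatocytes JNKΔhepa), each with 3 arrays. In these bulk samples, fewer cells of a type and less RNA per cell cannot be told apart.

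Mapk9 (Jnk2) fell in JNKΔhepa liver (log2 change -5.90, limma adjusted p = 4.02e-10) and hepatocytes (-5.47, adjusted p = 1.05e-09), and Mapk8 (Jnk1) fell less, by 0.40 and 0.61 on the log2 scale (limma adjusted p = 0.027 and 0.00183), with no overlap of the arrays for either gene in either tissue. Values are log2 RMA readings, with array medians of 4.09 to 4.12 in liver and 3.22 to 3.28 in hepatocytes. A reading below the median of its array is called dim here, and a difference that rests on dim readings has no exact size. Markers of hepatocytes were high in all groups (9 of 10 measured, mean reading 12.22 to 12.27 in liver and 12.07 to 12.17 in JNKΔhepa hepatocytes). Of 9 Kupffer cell and macrophage markers, all 9 read lower on average in JNKΔhepa than in WT hepatocytes, with mean readings of 4.93 to 5.41 against 5.32 to 6.02, and so did all 9 endothelial markers (6.22 to 6.69 against 6.69 to 6.98); 0 of either list passed the test, and their part in the hepatocyte results was not tested. In liver, these lists read 7.20 to 7.85 (WT) and 7.33 to 7.54 (JNKΔhepa) for Kupffer cells and 8.41 to 8.63 and 8.55 to 8.68 for endothelium.

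A pair of liver arrays stood apart from the other liver arrays. On liver WT replicate 3, 11 genes read more than 1 log2 unit above the highest of the other 5 liver arrays. Cyp2b9, a member, had the widest such gap (5.22), followed by Wee1 (2.18), Per3 (1.93), Usp2 (1.40) and Per2 (1.36), genes that follow the daily clock. On liver JNKΔhepa replicate 3, 21 genes did so, led by the kidney genes Kap (3.33) and Slc34a1 (3.31), and no member was among them. The liver differences of Cyp2b9, Cyp2a22 and Cyp1b1 are given with and without an array that stood apart. Other values include both arrays unless stated otherwise.

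The upstream sequences of 2 gene pairs are shown because the members of each pair lie in 1 gene cluster and read differently here. Cyp2b9 and Cyp2b13 share 248 of the 250 bases before their start (99.2%), and of the pair only the Cyp2b9 probe set read above the median of any array. Capitals mark the bases that differ. Counted from 1 at the 5′ end of the window and with the Cyp2b13 base first, these are C48T and T104C. The sequences are from RefSeq (GRCm38.p6), chr7:26173159-26173408 for Cyp2b9 and chr7:26061245-26061494 for Cyp2b13, both on the plus strand.
Cyp2b9: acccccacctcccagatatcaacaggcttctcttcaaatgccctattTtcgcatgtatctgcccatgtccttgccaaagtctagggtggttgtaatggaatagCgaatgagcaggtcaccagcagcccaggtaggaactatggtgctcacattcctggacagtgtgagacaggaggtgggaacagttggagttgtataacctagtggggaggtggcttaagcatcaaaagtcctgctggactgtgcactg
Cyp2b13: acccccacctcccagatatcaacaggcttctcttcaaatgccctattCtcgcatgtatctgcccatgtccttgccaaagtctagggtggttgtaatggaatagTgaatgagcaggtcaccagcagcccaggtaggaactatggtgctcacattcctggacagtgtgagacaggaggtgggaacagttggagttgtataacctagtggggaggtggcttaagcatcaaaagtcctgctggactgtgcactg
By contrast, the windows of Cyp2b9 and Cyp2b10 were 71.0% identical over their aligned columns.

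Cyp2j6 and Cyp2j9 lie in 1 cluster on the minus strand, and their mean readings lay on opposite sides of WT in JNKΔhepa mice, although neither gene passed the test in either tissue and the Cyp2j9 liver arrays overlapped. Their windows, chr4:96553652-96553901 for Cyp2j6 and chr4:96591486-96591735 for Cyp2j9, were 50.2% identical over aligned columns. Capitals in Cyp2j9 mark GCGTG, the core letters of the site bound by the aryl hydrocarbon receptor, which the Cyp2j6 window does not hold on either strand.
Cyp2j6: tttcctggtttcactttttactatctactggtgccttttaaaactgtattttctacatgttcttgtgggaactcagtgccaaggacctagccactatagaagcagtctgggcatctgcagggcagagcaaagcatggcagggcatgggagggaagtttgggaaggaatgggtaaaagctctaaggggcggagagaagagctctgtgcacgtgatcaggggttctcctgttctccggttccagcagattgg
Cyp2j9: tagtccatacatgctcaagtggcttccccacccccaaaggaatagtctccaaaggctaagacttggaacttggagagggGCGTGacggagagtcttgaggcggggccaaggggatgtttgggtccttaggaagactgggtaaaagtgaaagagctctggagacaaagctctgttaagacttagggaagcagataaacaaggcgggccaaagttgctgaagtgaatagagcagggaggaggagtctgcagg
Over the 41 members with a window in the RefSeq table, GCGTG was found in 8 (19.5%, against 30.9% of 27025 genes), searched on both strands. AGGTCA, letters bound by nuclear receptors, was in 12 (29.3% against 15.8%) and the related AGTTCA in 3 (7.32% against 13.4%). CAAAGTCCA, letters of the HNF4A type, were in 4 (Cyp2c65, Cyp2c67, Cyp2c68 and Cyp3a16, 9.76% against 0.451%), TTCNNNGAA of the STAT type in 2 (4.88% against 8.13%), and TGACTCA of the AP-1 type in 1, Cyp3a13 (2.44% against 5.16%). None of these motifs contains another. A match describes the letters only. Some windows are close copies, such as those of Cyp2b9 and Cyp2b13, which both hold AGGTCA, so the matches are not separate observations.

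The first comparison asked how the members differ between JNKΔhepa and WT mice within each tissue. In the fit over all 12 arrays, 0 of 49 members passed in liver (0.558% of all genes were called higher and 0.367% lower) and 0 passed in hepatocytes (0.367% higher and 0.473% lower; limma with Benjamini-Hochberg adjustment over all genes, called at an adjusted p under 0.05). Without adjustment, 7 members had p under 0.05 in liver and 10 in hepatocytes, where the background over all genes was 12.5% and 12.6%. The median log2 difference of the members was 0.0247 in liver (0.0155 over all genes) and 0.0428 in hepatocytes (-0.0018 over all genes). In each tissue 28 of 49 were above 0, where 54.35% of all genes were in liver and 49.44% in hepatocytes. The 95% interval lay within a 2-fold difference for 44 members in liver and for 45 in hepatocytes. Both counts include the 16 members that were dim on all 12 arrays, for which a narrow interval does not bound a change in RNA. They also include the brightest members, such as Cyp2f2, whose SD between arrays of a group was 0.026 log2 units. Whether readings that high still follow the amount of RNA was not tested. The wide intervals belonged to Cyp2a22, Cyp2b9, Cyp2b10, Cyp2c38 and Cyp2c39 in liver and to Cyp2a22, Cyp2b9, Cyp2b10 and Cyp2j9 in hepatocytes.

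**Figure D1:**
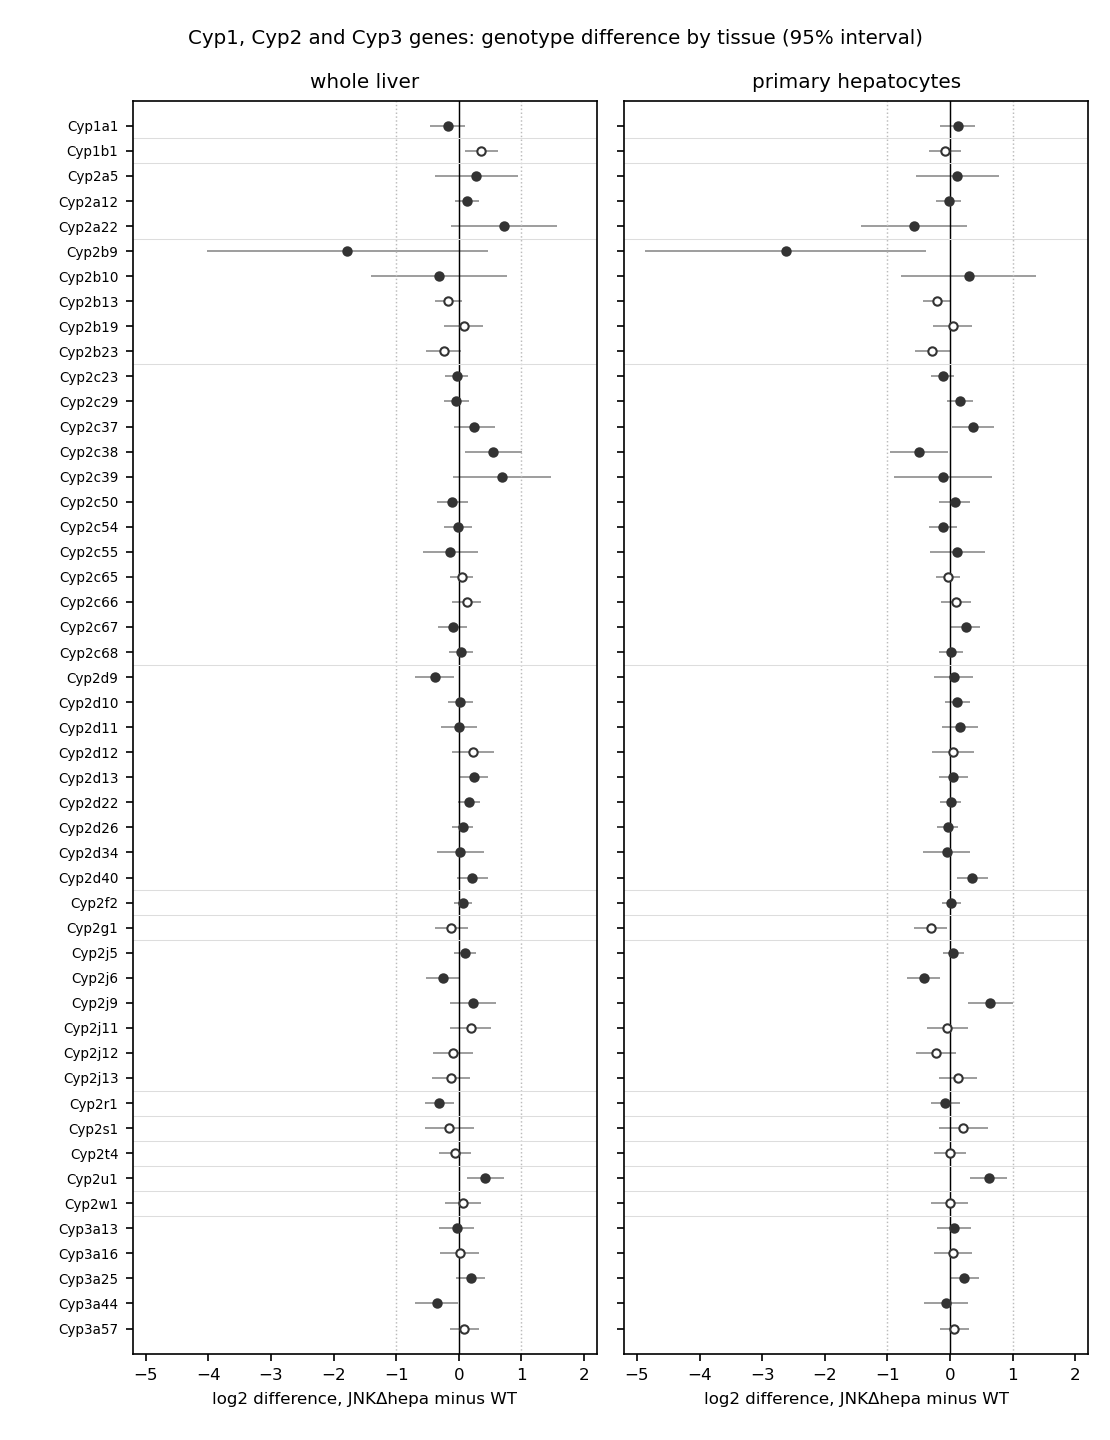
Log2 difference (JNKΔhepa minus WT) of each of the 49 members in whole liver (left) and primary hepatocytes (right), 3 arrays a group. Points are estimates from the fit over all 12 arrays and bars their 95% intervals. Open points mark the 16 members that were dim on all 12 arrays, and dotted lines mark a 2-fold difference. Most members lie close to 0, while Cyp2b9 lies farthest to the left in both tissues with the widest interval.

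Counted by arrays, 5 members were higher on every JNKΔhepa liver array than on every WT liver array (Cyp1b1, Cyp2c37, Cyp2d22, Cyp2f2 and Cyp2u1; background 12.9%) and 4 were lower (Cyp2c67, Cyp2d9, Cyp2j6 and Cyp2r1; background 7.57%). In hepatocytes 5 were higher (Cyp2c67, Cyp2d40, Cyp2j9, Cyp2u1 and Cyp3a25; 7.36%) and 4 lower (Cyp2b9, Cyp2b13, Cyp2g1 and Cyp2j6; 7.32%). These shares are near the background. Cyp2u1 was separated upwards in both tissues, Cyp2j6 downwards in both, and Cyp2c67 in opposite directions.

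Of the Cyp2b genes, Cyp2b10 is the one that CAR induces strongly, as by phenobarbital. Cyp2b9 and Cyp2b13 are known as female-biased in mouse liver. Cyp2b9 read 2.85, 2.97 and 8.25 in WT liver and 2.69, 3.01 and 3.02 in JNKΔhepa liver. In hepatocytes it read 6.11, 4.76 and 6.13 in WT against 3.01, 3.36 and 2.76 in JNKΔhepa. All 6 JNKΔhepa arrays were thus between 2.69 and 3.36, whereas all WT hepatocyte arrays and 1 of the 3 WT liver arrays were well above that range. The hepatocyte and liver readings came from the same mice: the mouse at 8.25 in liver was at 6.13 in hepatocytes, and those at 2.85 and 2.97 in liver were at 6.11 and 4.76.

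For Cyp2b9 in hepatocytes the log2 difference was -2.62 (6.15-fold, SE 1.04, 95% interval -4.87 to -0.38), which did not pass in the fit over all 12 arrays (limma adjusted p = 0.311). The spread in that fit is shared by the 4 groups and so includes the reading of 8.25. With the 6 hepatocyte arrays alone the difference passed (limma adjusted p = 0.0156), as it did in the fit without liver WT replicate 3 (0.0015, an alternative added after the data were seen). Over all alternatives its adjusted p ran from 0.0015 to 0.543. In liver the difference was -1.78 (adjusted p = 0.534) with that array and 0.000114 (0.9998 adjusted) without it. The interaction, which asks whether the genotype difference of hepatocytes differs from that of liver, was -0.84 for Cyp2b9 and did not pass (adjusted p = 0.952). Without liver WT replicate 3 it was -2.62 and did not pass (adjusted p = 0.0929, range 0.0929 to 0.999), and without either of the other WT liver arrays it was near 0 (0.08 and 0.02). Clock genes moved with liver WT replicate 3: the mean reading of 10 such genes was 7.09 there and 5.79 to 6.58 on the other 5 liver arrays, with Arntl, whose RNA peaks opposite to Per2, at 4.97 against 6.55 to 7.31. In hepatocytes of the same mouse the mean was 5.31, against 5.13 to 5.65 on the others. Their part in the Cyp2b9 reading was not tested.

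**Figure D2:**
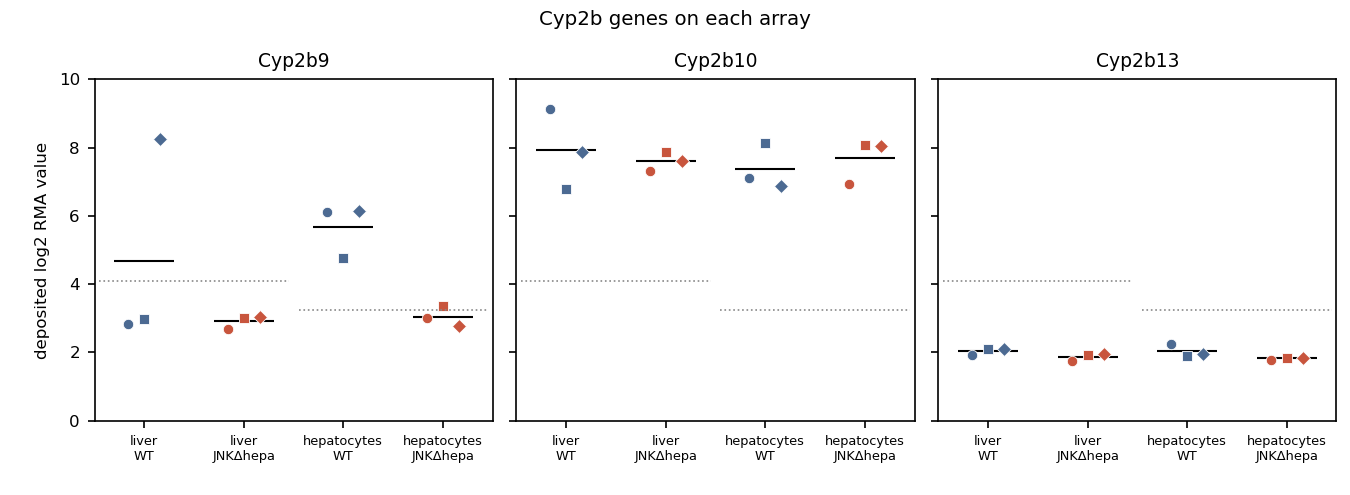
Deposited log2 RMA values of Cyp2b9, Cyp2b10 and Cyp2b13 on each of the 12 arrays (blue WT, red JNKΔhepa; circle, square and diamond are replicates 1, 2 and 3, which are the same mouse in both tissues; bars are group means). Dotted lines are the median of the array medians of each tissue. Cyp2b9 is high on liver WT replicate 3 and on the 3 WT hepatocyte arrays, Cyp2b10 scatters in every group, and Cyp2b13 stays below the dotted lines throughout.

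Cyp2b10, the classical CAR target, read 9.12, 6.77 and 7.86 in WT liver and 7.31, 7.88 and 7.61 in JNKΔhepa liver. Its hepatocyte readings were 7.12, 8.14 and 6.88 in WT against 6.92, 8.08 and 8.04 in JNKΔhepa. The groups overlapped in both tissues, with log2 differences of -0.32 in liver and 0.30 in hepatocytes (limma adjusted p = 0.875 and 0.88), and without liver WT replicate 1 the liver difference was 0.28. The other Cyp2b genes, Cyp2b13, Cyp2b19 and Cyp2b23, were dim on all 12 arrays. Their differences lay between -0.241 and 0.081 in liver and between -0.285 and 0.043 in hepatocytes. The Cyp2b13 probe set read 2.24, 1.91 and 1.95 in WT hepatocytes and did not show the high readings of Cyp2b9. Since it was dim throughout, its response to Cyp2b13 RNA cannot be judged here. How far the Cyp2b9 and Cyp2b13 probe sets read the RNA of both genes is not given in the sources used here.

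Cyp2u1, which hydroxylates long-chain fatty acids, had the smallest p of the members in both tissues. It read 6.93, 7.09 and 7.05 in WT liver and 7.74, 7.42 and 7.18 in JNKΔhepa liver. In hepatocytes the readings were 6.85, 7.05 and 6.91 in WT against 7.78, 7.38 and 7.53 in JNKΔhepa. Every JNKΔhepa array lay above every WT array of its tissue. In liver this gave a log2 difference of 0.42 with an SE of 0.137 (1.34-fold, limma adjusted p = 0.202). The hepatocyte difference was 0.62 with the same SE (1.54-fold, adjusted p = 0.057). In hepatocytes it passed after removal of dim probe sets (0.0433), with limma-trend (0.0398), without WT replicate 2 (0.0468) and, in alternatives added after the data were seen, without liver JNKΔhepa replicate 3 (0.0355) or both liver arrays that stood apart (0.0468), within a range of 0.0355 to 0.194 over its alternatives. The interaction was 0.20 (95% interval -0.22 to 0.62).

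The 5 genes most like Cyp2u1 over the 12 arrays, after each tissue was centred on its mean, were Tmem43 (r = 0.924), Cox6b2 (0.913), Elp3 (0.909), Pcif1 (0.907) and Mppe1 (0.906), out of 10158 genes compared. These values are descriptive, since 12 arrays in 4 groups are not independent points.

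**Figure D3:**
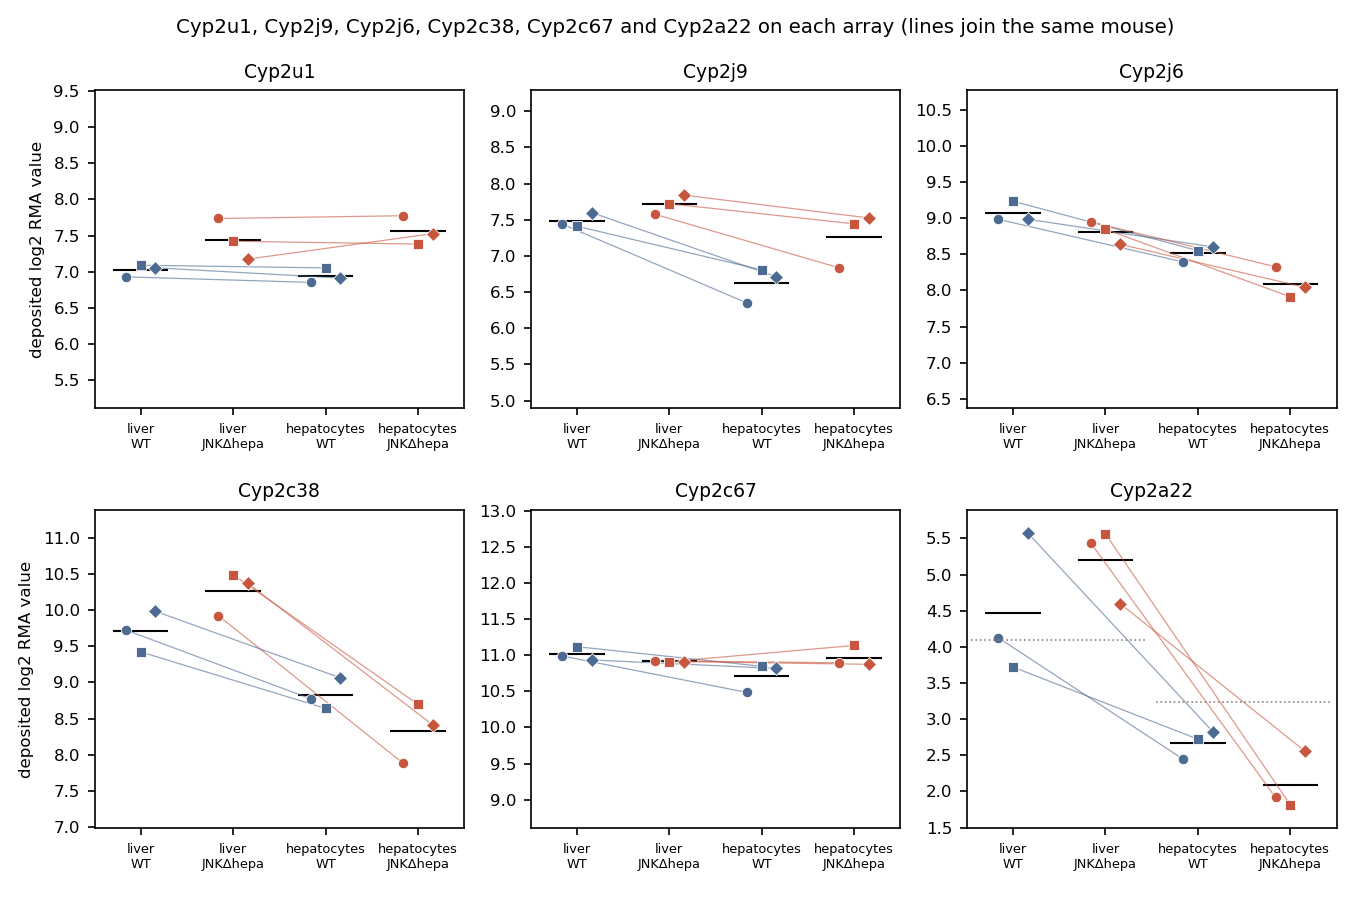
Deposited log2 RMA values of Cyp2u1, Cyp2j9, Cyp2j6, Cyp2c38, Cyp2c67 and Cyp2a22 on each array (blue WT, red JNKΔhepa; circle, square and diamond are replicates 1, 2 and 3; bars are group means; lines join the 2 samples of a mouse; dotted lines are the median of the array medians of a tissue, where in range). Each panel spans the same number of log2 units. Cyp2u1 is higher in JNKΔhepa in both tissues, Cyp2j6 is lower in both, and the lines of Cyp2c38 fall more steeply in the JNKΔhepa mice.

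The Cyp2j genes encode epoxygenases of arachidonic acid and other polyunsaturated fatty acids. Cyp2j9 read 7.44, 7.41 and 7.60 in WT liver and 7.58, 7.72 and 7.84 in JNKΔhepa liver, where the groups overlapped. The hepatocyte arrays read 6.35, 6.81 and 6.71 in WT against 6.83, 7.44 and 7.53 in JNKΔhepa, which did not overlap. The hepatocyte difference was 0.65 (1.56-fold, SE 0.168, limma adjusted p = 0.108). Without JNKΔhepa hepatocyte replicate 1 it was 0.86 and passed (adjusted p = 0.0094), and its adjusted p ran up to 0.321 over the alternatives.

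Cyp2j6 read 8.98, 9.23 and 8.98 in WT liver and 8.95, 8.85 and 8.64 in JNKΔhepa liver. Hepatocytes of the same mice read 8.39, 8.55 and 8.60 in WT against 8.33, 7.91 and 8.04 in JNKΔhepa. The JNKΔhepa arrays were below the WT arrays in both tissues, by narrow margins. The differences were -0.26 in liver (limma adjusted p = 0.42) and -0.42 in hepatocytes (SE 0.123, adjusted p = 0.154), and the latter passed without JNKΔhepa hepatocyte replicate 1 (-0.54, adjusted p = 0.0485, with a range up to 0.385). Cyp2j5 read 10.79 to 11.28 on all arrays with differences of 0.10 and 0.05, and Cyp2j11, Cyp2j12 and Cyp2j13 were dim on all 12 arrays.

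The Cyp2c subfamily is the largest here, with 12 members that include epoxygenases of arachidonic acid and hydroxylases of retinoids and steroids. Of these, 10 read above the median of every array and 2, Cyp2c65 and Cyp2c66, were dim throughout. Their median difference was 0.0137 in liver and 0.0469 in hepatocytes, with 6 and 7 of 12 above 0. Neighbours in the Cyp2c and Cyp2d clusters are close in sequence, and how far a probe set reads more than 1 of them is not given in the sources used here.

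Cyp2c38 read 9.72, 9.42 and 9.98 in WT liver and 9.92, 10.49 and 10.37 in JNKΔhepa liver. In hepatocytes it read 8.77, 8.64 and 9.06 in WT against 7.88, 8.70 and 8.41 in JNKΔhepa. The genotypes overlapped in each tissue. The difference was 0.55 in liver (SE 0.212, limma adjusted p = 0.288) and -0.50 in hepatocytes (adjusted p = 0.356). Its interaction had the smallest p of the members (-1.05, 95% interval -1.70 to -0.40, unadjusted p = 0.00402) and did not pass (limma adjusted p = 0.448, range 0.115 to 0.686). Taken per mouse, hepatocytes read below liver by 0.95, 0.78 and 0.92 log2 units in the WT mice and by 2.04, 1.79 and 1.96 in the JNKΔhepa mice, which did not overlap.

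Cyp2c39, a retinoic acid hydroxylase next to Cyp2c38, had an interaction of the same sign (-0.80, limma adjusted p = 0.787). Its readings were 6.65, 5.69 and 6.81 in WT liver and 6.36, 7.67 and 7.17 in JNKΔhepa liver, and they were 5.31, 5.27 and 5.45 in WT against 4.55, 5.79 and 5.35 in JNKΔhepa hepatocytes. The groups overlapped in both tissues.

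Cyp2c37 read 11.07, 11.27 and 11.35 in WT liver and 11.42, 11.55 and 11.48 in JNKΔhepa liver. Its hepatocyte readings were 10.37, 10.09 and 10.45 in WT against 10.29, 10.95 and 10.77 in JNKΔhepa. The hepatocyte difference was 0.37 (SE 0.152, limma adjusted p = 0.336). It was 0.56 and passed (adjusted p = 0.0468, range up to 0.652) without JNKΔhepa hepatocyte replicate 1, the lowest of its group.

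Cyp2c67 was the member whose arrays separated in opposite directions. It read 10.99, 11.12 and 10.93 in WT liver and 10.92, 10.91 and 10.91 in JNKΔhepa liver, a difference of -0.10. The hepatocyte arrays read 10.48, 10.85 and 10.82 in WT against 10.89, 11.13 and 10.87 in JNKΔhepa, a difference of 0.25 (limma adjusted p = 0.361). The interaction was 0.35 (SE 0.153, limma adjusted p = 0.664), so the difference between tissues was not resolved. Cyp2c23 and Cyp2c29, both among the 8 members with the highest readings, ranged from 11.64 to 11.98 and from 11.46 to 12.07.

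The Cyp2d genes number 9 here. Cyp2d9, a testosterone hydroxylase known as male-biased, read 10.47, 10.55 and 10.40 in WT liver and 10.07, 9.80 and 10.39 in JNKΔhepa liver, which did not overlap by the narrowest of margins. Hepatocytes of the same mice read 9.86, 10.17 and 10.10 in WT against 9.90, 10.21 and 10.20 in JNKΔhepa. The liver difference was -0.39 (SE 0.143, limma adjusted p = 0.269), and the interaction was 0.45 (adjusted p = 0.684). Cyp2d40 read 7.73, 7.73 and 7.37 in WT hepatocytes and 8.09, 7.83 and 7.98 in JNKΔhepa hepatocytes (0.36, adjusted p = 0.2). In liver it read 8.14, 8.10 and 8.29 in WT against 8.52, 8.28 and 8.37 in JNKΔhepa, and these overlapped.

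The pseudogene Cyp2d13 read 10.28, 10.43 and 10.59 in WT liver and 10.66, 10.77 and 10.58 in JNKΔhepa liver (0.24, limma adjusted p = 0.391), and in hepatocytes its groups lay at 9.69 to 10.01 and 9.81 to 9.95. Cyp2d22 and Cyp2d26 were among the members with the highest readings. Cyp2d22 read 11.20, 11.12 and 11.21 in WT liver and 11.27, 11.43 and 11.31 in JNKΔhepa liver, a difference of 0.16. Cyp2d26 read 11.81 to 12.05 on all arrays. Of the 9 members, 8 had a positive difference in liver (54.35% of all genes) and 7 in hepatocytes (49.44%), with medians of 0.0631 and 0.0539 and 0 called. Where a probe set reads several Cyp2d genes, these signs are not separate observations.

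The Cyp2a genes are Cyp2a5, which hydroxylates coumarin and nicotine, Cyp2a12 and Cyp2a22. Cyp2a22 read 4.13, 3.72 and 5.57 in WT liver and 5.44, 5.56 and 4.60 in JNKΔhepa liver. In hepatocytes it was dim on all arrays, at 2.45, 2.72 and 2.83 in WT against 1.92, 1.81 and 2.56 in JNKΔhepa. The liver groups overlapped through WT replicate 3, the same array on which Cyp2b9 was high. The liver difference was 0.73 (SE 0.391, limma adjusted p = 0.49) and the interaction -1.30 (adjusted p = 0.662). Without liver WT replicate 3 the liver difference was 1.28 (adjusted p = 0.0558). Without both liver arrays that stood apart, an alternative added after the data were seen that leaves 2 arrays in each liver group, it was 1.58 and passed (adjusted p = 0.0131, range 0.0131 to 0.833), as did the interaction (-2.15, adjusted p = 0.0341, range 0.0341 to 0.859).

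Cyp2a5 read 10.45, 10.62 and 11.44 in WT liver and 10.70, 11.47 and 11.17 in JNKΔhepa liver. In hepatocytes it read 10.01, 10.01 and 10.05 in WT against 9.40, 10.60 and 10.41 in JNKΔhepa. The JNKΔhepa hepatocytes thus lay on both sides of the WT readings. Cyp2a12 read 10.69 to 11.13 on all arrays, with differences of 0.13 in liver and -0.02 in hepatocytes.

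The Cyp3a genes encode broad drug and steroid hydroxylases regulated by PXR. Cyp3a25 read 11.79, 11.67 and 12.01 in WT liver and 11.95, 12.15 and 11.95 in JNKΔhepa liver. Its hepatocyte readings were 11.41, 11.38 and 11.68 in WT against 11.73, 11.71 and 11.71 in JNKΔhepa, which did not overlap (0.23, limma adjusted p = 0.419). Cyp3a44, known as female-biased, read 6.49, 6.72 and 6.84 in WT liver and 5.94, 6.46 and 6.58 in JNKΔhepa liver (-0.36, adjusted p = 0.392), and 5.64 to 6.05 and 5.64 to 5.90 in hepatocytes. Cyp3a13 read 9.86 to 10.29 in liver and 9.10 to 9.46 in hepatocytes without a separation of the genotypes. Cyp3a16, a fetal form, and Cyp3a57 were dim on all arrays.

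Both members of family 1 are targets of the aryl hydrocarbon receptor. Cyp1a1 read 3.99, 4.12 and 4.16 in WT liver and 4.06, 4.06 and 3.63 in JNKΔhepa liver, and it was dim on 10 of 12 arrays. The hepatocyte arrays read 2.36, 2.66 and 2.55 in WT against 2.48, 2.80 and 2.66 in JNKΔhepa (interaction 0.30, limma adjusted p = 0.775). Cyp1b1 read 3.45, 3.31 and 3.31 in WT liver and 3.57, 3.62 and 3.96 in JNKΔhepa liver, dim on every array (0.36, adjusted p = 0.209). Its highest reading was on liver JNKΔhepa replicate 3, the array with kidney genes, without which the difference was 0.24. The mean of both Cyp1b1 probe sets gave 0.10. In hepatocytes Cyp1b1 read 1.85, 1.76 and 1.74 in WT against 1.51, 1.71 and 1.89 in JNKΔhepa (interaction -0.44, adjusted p = 0.611).

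On liver JNKΔhepa replicate 3, the mean reading of 10 kidney genes was 4.35, against 2.96 to 3.10 on the other 5 liver arrays. The part of this in the Cyp1b1 reading was not tested.

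Of the subfamilies with 1 measured gene, Cyp2f, Cyp2r and Cyp2u read above the median of every array, while Cyp2g, Cyp2s, Cyp2t and Cyp2w were dim throughout. Cyp2f2, which activates naphthalene, read 12.32, 12.31 and 12.24 in WT liver and 12.36, 12.36 and 12.36 in JNKΔhepa liver, a difference of 0.07. In hepatocytes it read 12.22 to 12.28. Cyp2r1, the vitamin D hydroxylase of the liver, read 8.26, 8.30 and 8.06 in WT liver and 7.93, 8.00 and 7.76 in JNKΔhepa liver. Hepatocytes of the same mice read 7.52, 7.57 and 7.55 in WT against 7.64, 7.51 and 7.27 in JNKΔhepa. The liver groups did not overlap (-0.31, SE 0.108, limma adjusted p = 0.233), and the hepatocyte groups did (-0.07).

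Cyp2g1, a gene of the olfactory mucosa, read 2.02, 2.06 and 2.31 in WT hepatocytes and 1.72, 1.77 and 1.97 in JNKΔhepa hepatocytes, all dim (-0.31, limma adjusted p = 0.317), and 2.31 to 2.80 and 2.39 to 2.49 in liver. Cyp2s1 read 3.76 to 3.86 in WT and 3.38 to 3.96 in JNKΔhepa liver, and 2.11 to 2.48 and 2.16 to 2.88 in hepatocytes. Cyp2t4 lay between 1.79 and 2.23 and Cyp2w1 between 1.92 and 2.87 over all arrays. None of these separated the genotypes beyond the spread except as stated.

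The interaction was called for 0 of 49 members (0% of all genes higher and 0.0106% lower). Without adjustment, 5 members had p under 0.05, against 7.22% of genes, and these were Cyp2c38, Cyp1b1, Cyp2a22, Cyp2c67 and Cyp2d9. Cyp1b1 stands in this paragraph by its brighter probe set, and its other set differed in the opposite direction. The median interaction was -0.0383 for the members and -0.0217 over all genes. The 95% interval lay within 2-fold for 43 members, a count that includes the 16 members dim on all arrays. Per mouse, the difference between hepatocytes and liver did not overlap between genotypes for 4 members that were higher in JNKΔhepa (Cyp2c29, Cyp2c67, Cyp2d9 and Cyp2r1; background 4.87%) and 4 that were lower (Cyp1b1, Cyp2c38, Cyp2c39 and Cyp2d22; background 7.87%).

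Of 25 genes that serve or regulate these enzymes (electron donors, haem synthesis, receptors and liver transcription factors), 22 were measured. In liver 0 passed, with a median difference of 0.0182. In hepatocytes 1 passed: Alas1, the rate-limiting enzyme of haem synthesis, read 9.09, 9.33 and 9.15 in WT against 10.08, 10.25 and 10.34 in JNKΔhepa (log2 change 1.03, 2.05-fold, SE 0.192, limma adjusted p = 0.0239). In liver Alas1 read 10.21, 10.78 and 11.24 in WT against 10.28, 10.26 and 10.13 in JNKΔhepa (-0.52, adjusted p = 0.27), and its interaction did not pass (adjusted p = 0.182). Both results include liver WT replicate 3, which read 11.24, and were not fitted here without it. The receptor genes Ahr (-0.11), Nr1i2, which encodes PXR (0.20), and Rxra (0.22) did not pass in hepatocytes.

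Of 13 regulators of growth hormone signalling and sex bias, 12 were measured. Socs2, a feedback inhibitor induced by growth hormone, rose in JNKΔhepa hepatocytes (2.22, 4.64-fold, SE 0.399, limma adjusted p = 0.022), from 7.14, 6.91 and 6.77 to 9.53, 8.95 and 8.97. The others did not pass in either tissue. Cish, also on this list, read 6.19, 5.81 and 6.30 in WT against 6.37, 6.11 and 6.17 in JNKΔhepa hepatocytes, which overlapped. The liver difference of Cish was -1.35. Socs2 in liver read 8.44, 9.25 and 8.53 in WT against 7.91, 7.48 and 9.51 in JNKΔhepa (-0.44, limma adjusted p = 0.741). Its interaction was 2.66 and did not pass (limma adjusted p = 0.35). Both results for Socs2 include liver JNKΔhepa replicate 3, the array with kidney genes, which read 9.51. No value without that array is given. Of the members listed as male-biased (Cyp2d9, Cyp2f2 and Cyp2u1) and of the 6 measured ones of 11 genes listed as female-biased, 0 passed in either tissue. The median difference of the female-biased ones was -0.24 in liver and -0.09 in hepatocytes, with 2 of 6 above 0 in each. Of 10 members listed as CAR or PXR targets, 2 were above 0 in liver and 7 in hepatocytes, with medians of -0.07 and 0.10. Over all genes, 54.35% were above 0 in liver and 49.44% in hepatocytes.

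Levels set across the tissues depend on how the tissues were normalised, because the readings of hepatocyte arrays were lower as a whole. Over all genes the median difference of hepatocytes from liver was -0.58 in WT and -0.60 in JNKΔhepa. As deposited, 35 of 49 members were lower in WT hepatocytes and 0 higher, where 85.6% of all genes were called lower and 0.6% higher. In JNKΔhepa, 36 were lower and 0 higher, where 85.9% and 0.616% of genes were. After all 12 arrays were quantile normalised together, 4 members were higher (Cyp2b13, Cyp2j12, Cyp2t4 and Cyp2u1) and 7 lower in WT hepatocytes, with backgrounds of 13.6% and 14.8%. Cyp2b13, Cyp2j12 and Cyp2t4 were dim on all 12 arrays, and their WT differences as deposited were -0.01, 0.17 and -0.05. In JNKΔhepa 7 were higher and 9 lower, with backgrounds of 14.3% and 15.6%. The 7 include Cyp2b13, Cyp2j12, Cyp2j13 and Cyp2t4, each dim on all 12 arrays.

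**Figure D4:**
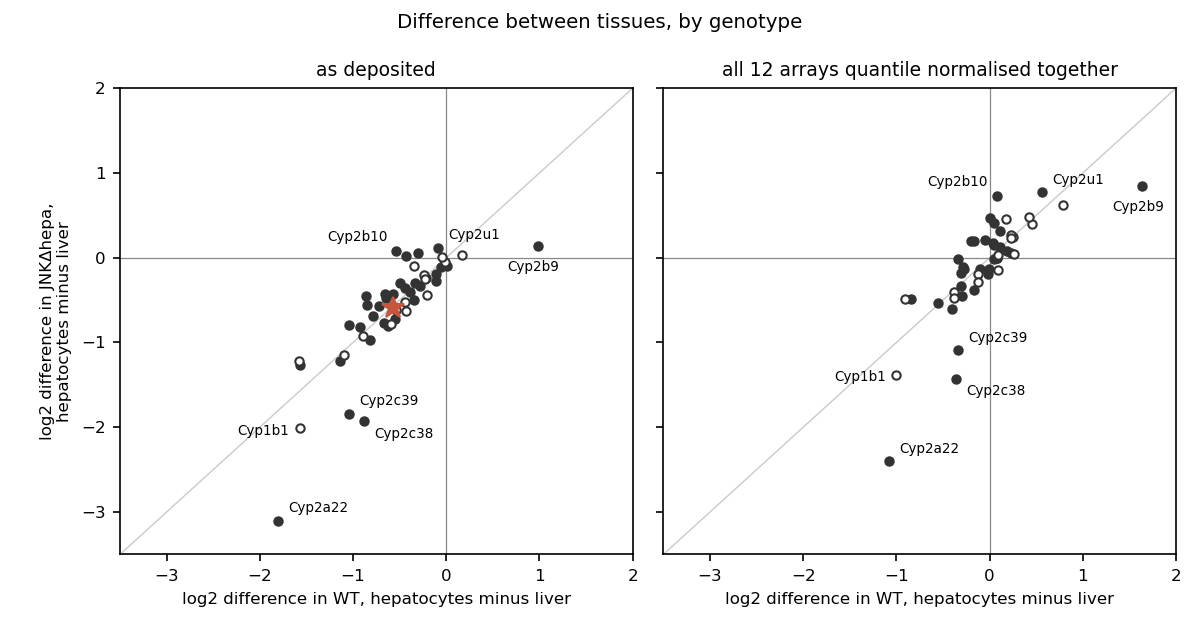
Log2 difference of hepatocytes from liver for the 49 members, WT on the horizontal and JNKΔhepa on the vertical axis, as deposited (left) and with all 12 arrays quantile normalised together (right). Open points are members that were dim on all arrays, the star in the left panel marks the median of all 18820 genes, and the diagonal marks equal differences. Most members lie along the diagonal near the star, while Cyp2a22, Cyp1b1 (by its brighter probe set), Cyp2c38 and Cyp2c39 lie below both. Their differences between the genotypes did not pass the test.

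Of the members called lower as deposited, Cyp2a22 had the largest difference, -1.81 in WT and -3.10 in JNKΔhepa (limma adjusted p = 0.000891 and 1.23e-05). After joint normalisation it was -1.08 (adjusted p = 0.0668, no longer called) and -2.40 (adjusted p = 0.000886), on dim hepatocyte readings. By its brighter probe set, Cyp1b1 (-1.57 and -2.01) was also lower in hepatocytes by more than the shift, as were Cyp1a1 (-1.56 and -1.27) and Cyp2s1 (-1.58 and -1.22). The other Cyp1b1 probe set, also dim on all arrays, was lower in hepatocytes by less than the shift in both genotypes. Cyp1b1 and Cyp2s1 were dim on all 12 arrays and Cyp1a1 on 10 of 12, so these differences have no exact size. After joint normalisation Cyp1b1 was at -0.9998 and -1.39, Cyp1a1 at -0.84 and -0.49, and Cyp2s1 at -0.91 and -0.49. There Cyp2s1 was no longer called in JNKΔhepa (adjusted p = 0.0774). Cyp2c38 was lower by 0.88 in WT and by 1.93 in JNKΔhepa as deposited, and by 0.36 (adjusted p = 0.235) and 1.43 (adjusted p = 0.000342) after joint normalisation. Cyp2c39 was at -1.04 and -1.84 as deposited and at -0.34 and -1.09 after it. Cyp2b23 read 3.80, 3.50 and 3.76 in WT liver, 3.41, 3.57 and 3.35 in JNKΔhepa liver, 2.62, 2.70 and 2.44 in WT hepatocytes and 2.02, 2.45 and 2.43 in JNKΔhepa hepatocytes, all dim. It differed by -1.10 and -1.14 as deposited and by -0.39 (adjusted p = 0.0488) and -0.48 (adjusted p = 0.018) after joint normalisation. Cyp2d34 read 4.95, 4.45 and 4.63 in WT liver, 4.76, 4.67 and 4.68 in JNKΔhepa liver, 3.93, 3.17 and 3.52 in WT hepatocytes and 3.28, 3.58 and 3.58 in JNKΔhepa hepatocytes. As deposited its tissue differences were -1.14 and -1.22, and Cyp2d34 was not called after joint normalisation (-0.31 and -0.33).

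Cyp2b9 had the highest difference upwards in WT as deposited, 0.98, which did not pass (limma adjusted p = 0.378). Without liver WT replicate 3 it was 2.76 and passed (adjusted p = 2.139e-05, range 2.139e-05 to 0.957). In JNKΔhepa it was 0.14 (adjusted p = 0.9).

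The 8 members that read highest differed in this. Cyp2f2 was at -0.06 in WT and -0.11 in JNKΔhepa as deposited, and Cyp2d26 at 0.01 and -0.09, none of which passed. Cyp2c29 (-0.49 and -0.30), Cyp2c37 (-0.93 and -0.81), Cyp2d22 (-0.35 and -0.50), Cyp2j5 (-0.28 and -0.33) and Cyp3a25 (-0.34 and -0.30) were called lower in hepatocytes in both genotypes, and Cyp2c23 (-0.11 and -0.19) passed in JNKΔhepa and not in WT. After joint normalisation, Cyp2c37 remained lower in both (-0.55 and -0.53) and Cyp2c29 in WT (-0.28, limma adjusted p = 0.0258).

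Cyp2u1 differed by -0.08 and 0.12 as deposited and was called higher in hepatocytes after joint normalisation (0.56 and 0.77, limma adjusted p = 0.00867 and 0.00116).

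The spread between mice was uneven among the members. The SD between arrays of a group, pooled over the 4 groups, had a median of 0.169 log2 units for the members and 0.139 over all genes. It was above 0.5 for 4 of 49 members (8.16%) and for 0.781% of all genes. These were Cyp2b9 (1.60), Cyp2b10 (0.765), Cyp2a22 (0.597) and Cyp2c39 (0.549), followed by Cyp2a5 (0.461). With all arrays, Cyp2b9 had the highest SD of all 18820 genes. That rests on liver WT replicate 3, without which its SD was 0.461, the rank was 159 and the SD of Cyp2a22 was 0.384, so that 2 members were above 0.5 (0.664% of all genes). The range over 3 arrays was 5.40 for Cyp2b9 in WT liver, 1.37 in WT hepatocytes, 0.33 in JNKΔhepa liver and 0.60 in JNKΔhepa hepatocytes. For Cyp2b10 it was 2.35, 1.26, 0.57 and 1.16 in the same order. Cyp2c39 ranged over 0.18 in WT hepatocytes and 1.23 in JNKΔhepa hepatocytes, and Cyp2a5 over 0.0416 and 1.20.

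**Figure D5:**
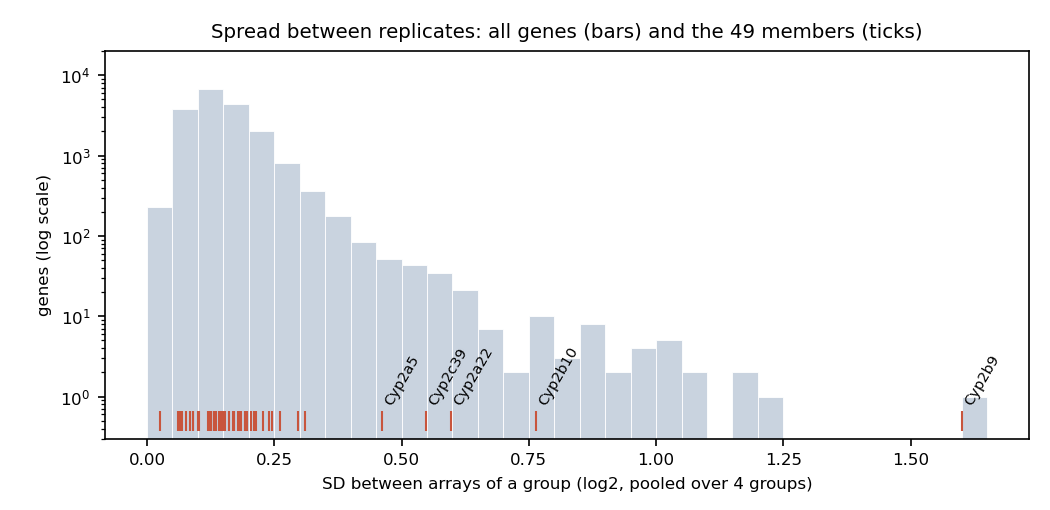
SD between arrays of a group (log2 units, pooled over 4 groups) for all 18820 genes (bars, log scale) and for the 49 members (ticks under the bars). The members with an SD above 0.4 are named, and Cyp2b9 lies at the far right, at 1.60.

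On some arrays, many bright members shared the order of the replicates within a group. Among the 29 members above the median of all 12 arrays, JNKΔhepa hepatocyte replicate 1 was the lowest of its group for 15 (33.1% of the 9298 genes above the median of all arrays) and replicate 2 the highest for 16 (22.3%). WT liver replicate 3 was the highest of its group for 18 of 29 (36.8%), and WT hepatocyte replicate 3 for 17 (40.9%). JNKΔhepa liver replicate 2 was the highest for 17 (32.7%). These are the largest counts, and other arrays lay nearer to their share or below it. WT liver replicate 2 was the highest for 8 of 29 (34.0%), and WT hepatocyte replicate 2 for 7 (30.7%). Where a probe set reads several related genes, these counts are not separate observations.

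The shared probe sets of the families number 5, among them those that the platform assigns to Cyp2a4, Cyp2c40, Cyp2c69 and Cyp3a59 together with other genes. Between the genotypes they differed by -0.11 to 0.41 on the log2 scale, and 0 passed in liver, hepatocytes or the interaction (smallest limma adjusted p = 0.281).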

How the data were processed

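Total RNA was measured on whole-transcript arrays (1 per sample). The authors deposited log2 values made by RMA, per the submitters' processing notes, which name no version; the log base was inferred from the value range. Array quantiles differ between tissues, which appear to have been normalised separately. The platform annotation gave 1 symbol to 21218 of 35556 probe sets, several to 1881, and 12457 are unnamed here. The brightest probe set stood for each of 18820 genes.

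Group means were fitted to all 12 arrays with limma 3.58.1 (R 4.3.3, lmFit and eBayes, two-sided), with Benjamini-Hochberg adjustment over all genes and calls under 0.05. Precision is limited by 3 arrays a group. The fit was tested on simulated data. Every member was counted by subfamily, and values per array, or for the brightest members in part their range, were given for the 8 members of smallest p in each genotype contrast and the interaction, the 6 largest called tissue changes, the 8 brightest members and single members of a subfamily; Cyp2a5, Cyp2b10 and Cyp2b13, and Cyp2a22 and Cyp2b9 in liver, were added after their values were seen. Members and lists were chosen with earlier results of these data known, and the kidney and clock lists after these arrays were seen. Same-numbered liver and hepatocyte samples come from the same mouse, per the labels; deviations of the pairs from group means correlated at -0.0158 to 0.0772. Alternatives were joint quantile normalisation, a filter on dim probe sets, limma-trend, array weights, mean of probe sets, blocks, and leaving arrays out. Promoter windows are the 250 bases before the start in RefSeq (GRCm38.p6).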

Additional observations from a re-analysis of the deposited data

How the results depend on the processing

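The count of members called between genotypes was 0 in liver under 14 of 15 alternatives and 0 in the interaction under 18 of 19. The exception in both was leaving out liver WT replicate 3 and liver JNKΔhepa replicate 3 together, which gave 1 (Cyp2a22). In hepatocytes the count was 1 after removal of dim probe sets, with limma-trend (Cyp2u1 in both), with only the 6 hepatocyte arrays, with the replicate block by number (Cyp2b9 in both), without liver WT replicate 3 (Cyp2b9) and without liver JNKΔhepa replicate 3 (Cyp2u1), and 2 without both of these arrays. The 2 settings that leave out a liver array alone in the hepatocyte comparison and the setting that leaves out both were chosen after seeing the data. Leaving out each array of the groups compared gave 0 in liver, 0 to 3 in hepatocytes (3 without JNKΔhepa replicate 1, 1 without WT replicate 2), 0 in the interaction, and 32 to 36 in each tissue comparison. The tissue comparisons gave 11 calls in WT and 16 in JNKΔhepa after joint quantile normalisation, against 35 and 36. Over the 6 arrays left out in turn the liver difference ran from -2.70 to 0.000114 for Cyp2b9 and from -0.89 to 0.28 for Cyp2b10.

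Of 633 alternative values of named members, 614 kept direction and side of the threshold, 14 newly passed, 3 no longer passed and 2 changed sign. The replicate block by number, which pairs WT and JNKΔhepa mice that share only a number (correlations -0.0221 to 0.0555), gave 1 call in hepatocytes and 0 in liver. The mouse as a block changed no call of a named member. With 3 arrays a group and no detection calls, differences of dim members have no exact size. Where a result moved, the cause was not tested.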
